A study of Mus musculus with 9 samples.

Results

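The COPI coat genes examined here are the 9 genes for coatomer subunits, Copa, Copb1, Copb2, Copg1, Copg2, Cope, Copz1, Copz2 and Arcn1, together with Arf1, which encodes the small GTPase that recruits the coat. They were chosen by name, with earlier results of these data known, and each of the 10 matched 1 of the 56941 gene rows of the count table. RNA was measured in pancreatic islets, the hormone-secreting clusters of the pancreas, from wild-type male C57BL/6J mice that were 15 weeks old when they were placed on a diet for 9 months. There were 3 islet libraries from a low fat control diet with 10% fat (LFD), 2 from a high fat diet with 60% fat (HFD) and 4 from a ketogenic diet with 89.9% fat (KD). The study asked how the ketogenic diet affects islet gene expression. The labels number the replicates without saying that each was a separate animal, so the p-values measure the spread between these libraries, which may be technical.

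COPI is the coat that buds vesicles from Golgi membranes and carries proteins back to the endoplasmic reticulum and between Golgi cisternae. Arf1 in its GTP-bound state inserts into the membrane and draws coatomer from the cytosol, the coat binds cargo receptors, and hydrolysis of GTP on Arf1 lets the coat fall off again. Cells that secrete large amounts of protein, such as the endocrine and the digestive cells of the pancreas, use this route to return escaped residents of the endoplasmic reticulum.

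The libraries held 15513502 to 26588390 counts, and all 10 genes were among the 18548 that passed a filter on low counts, with 426 counts in the lowest library of Copg2 and 11617 in the highest of Copa. All 10 markers of beta cells, insulin genes included, were detected above the filter and took 5.72 to 9.49% of counts on LFD, 11.6 to 12.9% on HFD and 1.68 to 12.8% on KD. All 22 markers of acinar cells, the digestive enzyme cells that surround islets, were also above the filter, and their summed share was 14.2 to 32.7% on LFD, 10.7 to 17.6% on HFD and 18.9 to 57.3% on KD. Of 12 lymphocyte markers, 11 were lower on KD than on LFD by edgeR at an adjusted p below 0.05, with a summed share of 0.00851 to 0.155% on LFD, 0.00697 to 0.0112% on HFD and 3.80e-04 to 0.00142% on KD. Of the lymphocyte markers Ms4a1, Ighd, Cd3d, Cd3e and Cd3g were at 0 in 3 libraries each. The acinar markers had a median log2 fold change of 1.58 for KD against LFD, and edgeR called 0 of the 22. Called lower on KD among the other marker lists were Krt19 (log2 fold change -1.99) and Cftr (-1.79) of 6 duct markers, Lyz2 (-2.04) of 6 macrophage markers and Hhex (-0.88) of 4 delta and PP cell markers. The part of these cell types in the results below was not tested beyond the values given. In such bulk samples, fewer cells of a type and less RNA per cell cannot be told apart, and isolation or sequencing batches, which the labels do not give, cannot be told apart from diet.

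None of the 10 genes passed the threshold in KD against LFD, but most of them lay higher on KD (edgeR quasi-likelihood test, Benjamini-Hochberg adjusted p below 0.05; 4.12% of all genes tested were called). The fold change was above 0 for 9 of the 10, against 48.1% of all genes. In 7 of the 10 the lowest KD library lay above the highest LFD library, against 9.69% of all genes that were separated in that direction and 19.7% in either. These were Copa, Copg1, Cope, Copz1, Copz2, Arcn1 and Arf1. The median log2 fold change was 0.27 over the 10 genes and -0.02 over all genes tested. At an unadjusted p below 0.05, 5 of the 10 passed, against 22.7% of all genes. These values are on the scale of CPM (counts scaled to a common library size, after TMM scaling), which sets the bulk of genes level between libraries. When libraries were scaled by their totals instead, the median of all genes moved to -0.59 and that of the 10 genes to -0.29. On that scale 1 of the 10 was above 0, and all 10 lay above the median of all genes.

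**Figure D1:**
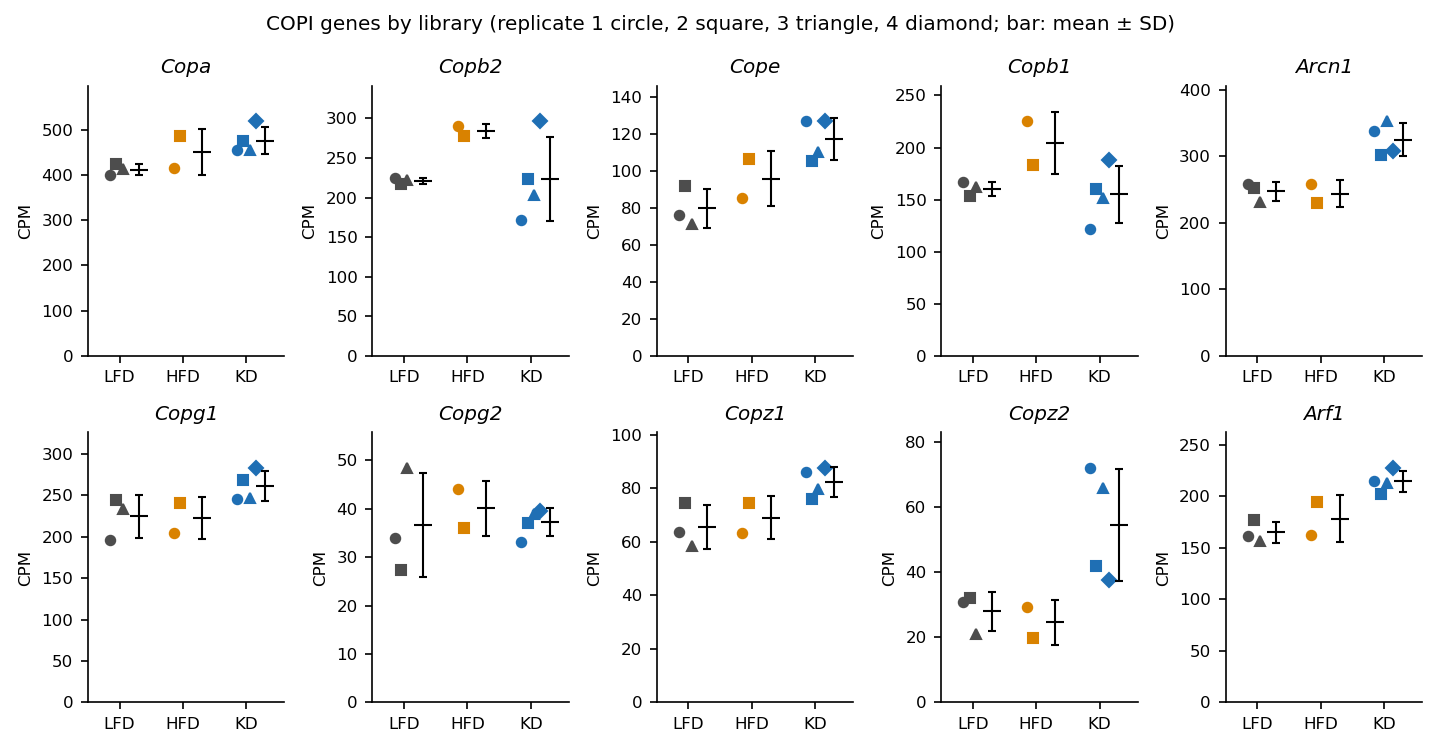
CPM (y axis, from 0) of the 10 COPI genes in each of the 9 libraries, by diet; symbols give the replicate number, and the bar with whiskers gives the mean ± SD of the diet (n = 3 LFD, 2 HFD, 4 KD). The KD points lie above all LFD points in 7 panels, while the 4 KD libraries of Copb1 and Copb2 spread below and above the LFD values.

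A set of 3 promoters held an identical short motif, and they are shown as the members that share it. The letters TGACGTGG, searched on both strands, are a form of the element known as UPRE, which transcription factors of the unfolded protein response can bind. They were found in the windows of Arf1, Copb1 and Copb2, that is in 3 of the 9 members (all but Arcn1) with a promoter window of 250 bases before to 50 after the start, against 1.03% of 12027 genes tested that had one and 0.676% of all 32851 windows. Each stretch below reads 5′ to 3′ on the strand of its gene, with the motif in capitals, either as written or as its reverse complement (RefSeq, GRCm38.p6, which is not the build of the counts).
Arf1, chr11:59228224-59228286, minus strand: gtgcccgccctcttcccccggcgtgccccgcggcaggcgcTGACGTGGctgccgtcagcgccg
Copb1, chr7:114254686-114254748, minus strand: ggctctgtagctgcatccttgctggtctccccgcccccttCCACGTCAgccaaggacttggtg
Copb2, chr9:98563684-98563746, plus strand: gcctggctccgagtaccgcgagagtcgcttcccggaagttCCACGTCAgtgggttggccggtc
The first base of the motif lay 28 bases before the start in Copb1 and 7 before it in Copb2. Arf1 has a pair of windows for different starts, in which the same motif lay 84 bases before one start and at base 21 after the other. Across libraries the log2 CPM of Arf1 had Pearson's r of -0.33 with Copb1 and -0.11 with Copb2 (9 libraries, a description). Of the COPII coat genes, 3 of 15 held TGACGTGG. The shorter letters CCACGT, which lie within the UPRE and were added after these sequences had been seen, occurred in 6 of the 9 members, in 8 of the 15 COPII genes and in 12.6% of the tested genes. The cAMP response element TGACGTCA occurred in Cope alone of the 9, and in 3.39% of the tested genes. The longer elements ERSE and ERSE-II of the unfolded protein response were in 0 of the 9 windows, and in 0.166% and 0.0748% of the tested genes. A match describes letters only, since no binding was measured.

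Arf1, the GTPase that starts coat assembly, was measured at 161, 177 and 157 CPM in LFD replicates 1 to 3, at 162 and 194 CPM on HFD, and at 214, 202, 212 and 228 CPM in KD replicates 1 to 4. Every KD library lay above every LFD and HFD library. The mean was 214 ± 10.3 CPM (SD, n = 4) on KD and 165 ± 10.4 (n = 3) on LFD, a log2 fold change of 0.38 (SE 0.13) that did not pass the test (adjusted p = 0.110 in edgeR).

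Among the subunits of the inner layer of the coat, Arcn1, which encodes delta-COP, stood clear of the other diets on KD. Its level was 259, 253 and 231 CPM on LFD, 259 and 229 CPM on HFD, and 338, 302, 353 and 308 CPM on KD. The lowest KD library was above the highest of the other 5 libraries, and the log2 fold change against LFD was 0.39 (SE 0.13; adjusted p = 0.114 in edgeR).

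Copb1, which encodes beta-COP, was not higher on KD. It was at 167, 153 and 162 CPM on LFD, at 225 and 183 CPM on HFD, and at 122, 159.9, 151 and 188 CPM on KD. The LFD libraries were tight and lay inside the KD range, and both HFD libraries were above all LFD libraries. Its log2 fold change was -0.05 (SE 0.16, adjusted p = 0.891 in edgeR) for KD against LFD.

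Gamma-COP, which binds cargo tails and Arf1, has paralogous genes. Copg1, the more abundant, was at 196, 244 and 234 CPM on LFD, 205 and 241 CPM on HFD, and 246, 268, 247 and 284 CPM on KD. The KD libraries lay above the others by a narrow margin, with a log2 fold change against LFD of 0.22 (SE 0.14, adjusted p = 0.375 in edgeR). Copg2 was at 34.0, 27.3 and 48.4 CPM on LFD, 44.0 and 36.1 CPM on HFD, and 33.1, 37.1, 38.8 and 39.6 CPM on KD. The KD values lay within the LFD range, with a log2 fold change of 0.02 (SE 0.18, adjusted p = 0.957 in edgeR). Copg2 overlaps Mest on the opposite strand (2.65 to 6.86 CPM in the 9 libraries), and the labels and processing notes do not give the strand setting of the counting, which leaves its level uncertain.

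Zeta-COP, a small subunit that pairs with gamma-COP, likewise has paralogous genes, and they differed in spread. Copz1 was at 63.5, 74.6 and 58.4 CPM on LFD, 63.4 and 74.7 CPM on HFD, and 86.1, 76.0, 79.6 and 87.7 CPM on KD. Its KD libraries were above all others, with a log2 fold change against LFD of 0.33 (SE 0.13, adjusted p = 0.159 in edgeR). Copz2 was at 31.0, 32.0 and 21.01 CPM on LFD, 29.4 and 19.8 CPM on HFD, and 72.2, 42.0, 66.1 and 37.6 CPM on KD. All KD libraries exceeded all others, and KD replicates 1 and 3 stood well above KD replicates 2 and 4. The log2 fold change of Copz2 against LFD was 0.96 (SE 0.26), the largest of the 10 genes (adjusted p = 0.0659 in edgeR). Without KD replicate 4 it was 1.10 and passed the test (adjusted p = 0.0289 in edgeR; 7.4% of all genes were then called).

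By counts, Copz2 was below Copz1 in all 9 libraries (ratio 0.265 to 0.838). The longest annotated coding transcript has 930 bases for Copz2 and 2438 for Copz1, and the transcripts in use were not measured. Per base of that transcript, Copz2 exceeded Copz1 2.20-fold, 1.45-fold, 2.18-fold and 1.12-fold in KD replicates 1 to 4. The same ratio was 1.28, 1.13 and 0.944 on LFD and 1.22 and 0.695 on HFD. KD and LFD therefore overlapped, and the difference in the mean log2 ratio of counts, 0.59, did not pass a two-sided exact permutation test (p = 0.143, adjusted over the 2 paralog pairs 0.286, where 0.0286 is the smallest p that 35 splits allow). The ratio of Copg2 to Copg1 per base was 0.117 to 0.224 over the 9 libraries, and its log2 difference between KD and LFD was -0.16 (exact permutation p = 0.514, adjusted 0.514).

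Each zeta-COP gene also carries a microRNA within its span, on the same strand, and the 3p mature forms of both share a seed. The seed, bases 2 to 8, is in capitals (RefSeq, GRCm38.p6).
mmu-miR-152-3p, within Copz2: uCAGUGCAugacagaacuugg
mmu-miR-148b-3p, within Copz1: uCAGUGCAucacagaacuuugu
The rows of these microRNA genes held 0 to 2 counts per library. Libraries of polyadenylated RNA do not measure mature microRNAs, so the level of neither microRNA can be read here.

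In the outer layer of the coat, Copa, which encodes alpha-COP and carries the binding site for retrieval signals, was the most abundant gene of the set. It was at 399, 424 and 412 CPM on LFD, 415 and 487 CPM on HFD, and 454, 475, 455 and 518 CPM on KD. The KD libraries were above all LFD libraries, and HFD replicate 2 lay among them. The log2 fold change for KD against LFD was 0.21 (SE 0.14, adjusted p = 0.405 in edgeR). Copa overlaps Ncstn on the opposite strand, which was at 70.8 to 115 CPM, so the level of Copa carries the same uncertainty as that of Copg2. Unnamed gene models also overlap members, Gm38164 with Copa and Gm48562 with Arcn1 on the same strand. On the opposite strand lie Gm37756 (Copa), Gm47147 (Copb2) and Gm26636 (Copg1). Their part in the counts was not tested.

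Copb2, which encodes beta'-COP, was like Copb1 not higher on KD than on LFD. It was at 224, 217 and 223 CPM on LFD, 291 and 278 CPM on HFD, and 172, 224, 203 and 296 CPM on KD. The KD libraries held both the lowest and the highest value of the 9, and HFD was above LFD in both libraries. The log2 fold change for KD against LFD was 0.02 (SE 0.17, adjusted p = 0.965 in edgeR).

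Cope, which encodes epsilon-COP, a subunit that stabilises alpha-COP, had the lowest adjusted p of the 10. Its level was 76.4, 91.9 and 71.5 CPM on LFD, 85.4 and 106 CPM on HFD, and 127, 106, 110.2 and 127 CPM on KD. All KD libraries were above all LFD libraries, and HFD replicate 2 was within the KD range. The mean was 117 ± 11.2 CPM (SD, n = 4) on KD and 79.9 ± 10.6 (n = 3) on LFD, a log2 fold change of 0.55 (SE 0.14, adjusted p = 0.0527 in edgeR). Cope was called under 5 of 20 alternative settings. These were DESeq2 (9.56% of all genes called), limma-voom (10.1%), acinar marker levels as a covariate (8.1%), a block by replicate number (10.8%) and no filter on low counts (3.42%). In the main fit 4.12% of all genes were called. Cope was not called in any of the 9 fits that left out 1 library.

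The number of genes called in KD against LFD depended on the tool. DESeq2 called 4 of the 10, Cope, Copz2, Arcn1 and Arf1, where it called 9.56% of all genes, and limma-voom called Cope and Arf1, where it called 10.1%. Neither tool called Copa, Copb1, Copb2, Copg1, Copg2 or Copz1.

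**Figure D2:**
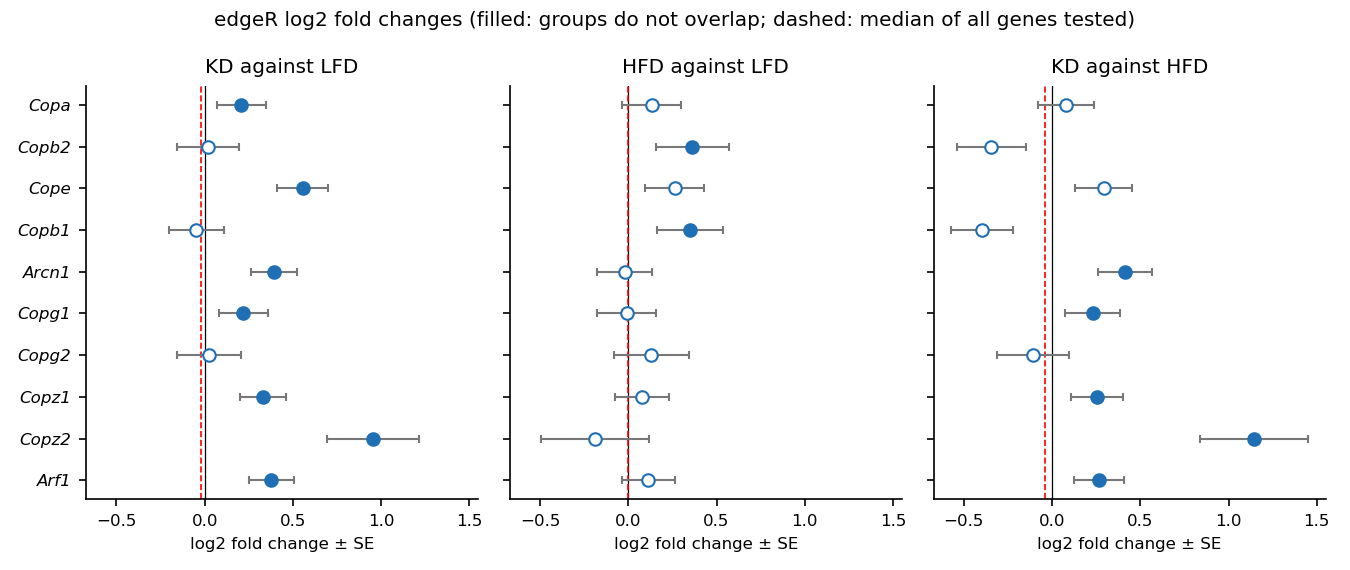
Log2 fold changes (x axis, edgeR, ± SE) of the 10 genes in the 3 comparisons of diets; filled points mark genes whose libraries do not overlap between the diets, and the dashed line is the median of all genes tested. In KD against LFD, 7 points are filled and lie between 0.21 and 0.96, and in HFD against LFD the filled points are Copb1 and Copb2.

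In HFD against LFD, the share of members without overlap was near that of all genes. Copb1 averaged 204 ± 29.7 CPM (SD, n = 2) on HFD and 161 ± 6.85 (n = 3) on LFD, and Copb2 284 ± 9.05 and 221 ± 3.87 CPM. They were the 2 genes of the 10 whose libraries did not overlap, both higher on HFD, against 27.5% of all genes without overlap and 13.4% higher. Their log2 fold changes were 0.35 (SE 0.19) and 0.36 (SE 0.21), with edgeR adjusted p-values of 0.555 and 0.574. No member was called by edgeR, where 0% of all genes were. None had an unadjusted p below 0.05, against 9.99% of all genes, and DESeq2, which called 1.44% of all genes, called none of the 10. The other 8 log2 fold changes ran from -0.19 for Copz2 to 0.26 for Cope, and the median was 0.12, against -0.0017 over all genes.

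KD against HFD shares its KD libraries with the first comparison and its HFD libraries with the second. Copz2 averaged 54.5 ± 17.2 CPM (SD, n = 4) on KD and 24.6 ± 6.81 (n = 2) on HFD, a log2 fold change of 1.14 (SE 0.30, adjusted p = 0.124 in edgeR). Arcn1 was at 325 ± 24.2 and 244 ± 20.6 CPM (log2 fold change 0.41, SE 0.15, adjusted p = 0.155 in edgeR). Copb1 pointed the other way, with -0.40 (SE 0.18, adjusted p = 0.212 in edgeR), and its diets overlapped through KD replicate 4. Copb2 was at -0.34 (SE 0.20, adjusted p = 0.316 in edgeR). EdgeR called none of the 10, and 0% of all genes, while DESeq2, which called 8.18% of all genes, called Copz2 and Arcn1. At an unadjusted p below 0.05, 3 of the 10 passed, Copb1, Copz2 and Arcn1, against 22.7% of all genes. The members Copg1, Copz1, Copz2, Arcn1 and Arf1, 5 in number, were higher in every KD library than in both HFD libraries, against 15.7% of all genes that were separated in that direction and 33.9% in either. In a joint test over the 3 diets edgeR called 0 of the 10 and 2.17% of all genes.

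The members fell into sets that moved together across the 9 libraries. Pearson's r of log2 CPM was 0.97 for Cope with Copz1 and for Cope with Arf1, 0.96 for Copz2 with Arcn1, and 0.94 for Copb1 with Copb2. The lowest was -0.62, for Copb2 with Copz2. These correlations are descriptions over 9 libraries that share the scaling and the 3 diets.

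Some members varied with the marker levels of other cell types. A score was taken for each library as the mean log2 CPM of the 22 acinar markers. The 10 beta cell and the 12 lymphocyte markers were scored likewise. The p-values of all 30 relations of a member to a score were adjusted together. The permutations exchanged libraries across diets. Their p-values therefore cannot tell a relation to a score apart from a difference between diets that the gene and the score share. Copz2 rose with the acinar score, with Pearson's r of 0.93 (exact permutation p = 4.71e-04, adjusted 0.0141) and Spearman's rho of 0.93 (exact permutation p = 7.50e-04, adjusted 0.0225). Arcn1 had r = 0.84 (exact permutation p = 0.00659, adjusted 0.0659) and rho = 0.85 (exact permutation p = 0.00607, adjusted 0.0911), short of the threshold. With the beta score Copz2 had r = -0.67 and Arcn1 r = -0.46, and neither passed (exact permutation, adjusted p = 0.167 and 0.391). Without KD replicates 1 and 3, the libraries farthest from the median acinar score, r was 0.80 for Copz2 and 0.60 for Arcn1. Within KD, Copz2 stood in the order of the acinar share, from 57.3% in replicate 1 through 52.2% in replicate 3 and 41.5% in replicate 2 to 18.9% in replicate 4.

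Copb2 had r = 0.90 with the beta cell score (exact permutation p = 9.62e-04, adjusted 0.0144), and its rho of 0.80 did not pass (exact permutation p = 0.0138, adjusted 0.103). Copb1 had r = 0.79 with the beta score (exact permutation p = 0.0111, adjusted 0.0674) and rho = 0.78 (exact permutation p = 0.0172, adjusted 0.103). With the acinar score, Copb2 had r = -0.80 and rho = -0.65 (exact permutation p = 0.0112 and 0.0666, adjusted 0.0674 and 0.182) and Copb1 r = -0.72 and rho = -0.75 (exact permutation p = 0.0256 and 0.0255, adjusted 0.128 and 0.127). Without KD replicates 1 and 4, r with the beta score was 0.75 for Copb2 and 0.58 for Copb1, and without KD replicates 1 and 3, r with the acinar score was -0.58 and -0.44. The 2 scores themselves had r = -0.84 and rho = -0.80 over the 9 libraries (exact permutation p = 0.00501 and 0.0138), so the relations to one are not independent of those to the other.

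Copa, Copg1, Copg2, Cope, Copz1 and Arf1 had r between -0.32 and 0.43 with the acinar score, none with an adjusted p below 0.05 (exact permutation). The lymphocyte score fell into separate ranges by diet, from 0.94 to 3.70 on LFD, -0.94 to -0.60 on HFD and -2.45 to -1.66 on KD, so its relation to the members cannot be told apart from that of the diet. As a description over the 9 libraries, its r was -0.81 with the mean log2 CPM of the 10 genes, -0.69 with Arf1, -0.67 with Cope, -0.65 with Arcn1 and -0.64 with Copa, and none of the 10 members passed (exact permutation, lowest adjusted p = 0.167 for r and 0.103 for rho). No diet has the 6 libraries needed for a correlation within it.

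**Figure D3:**
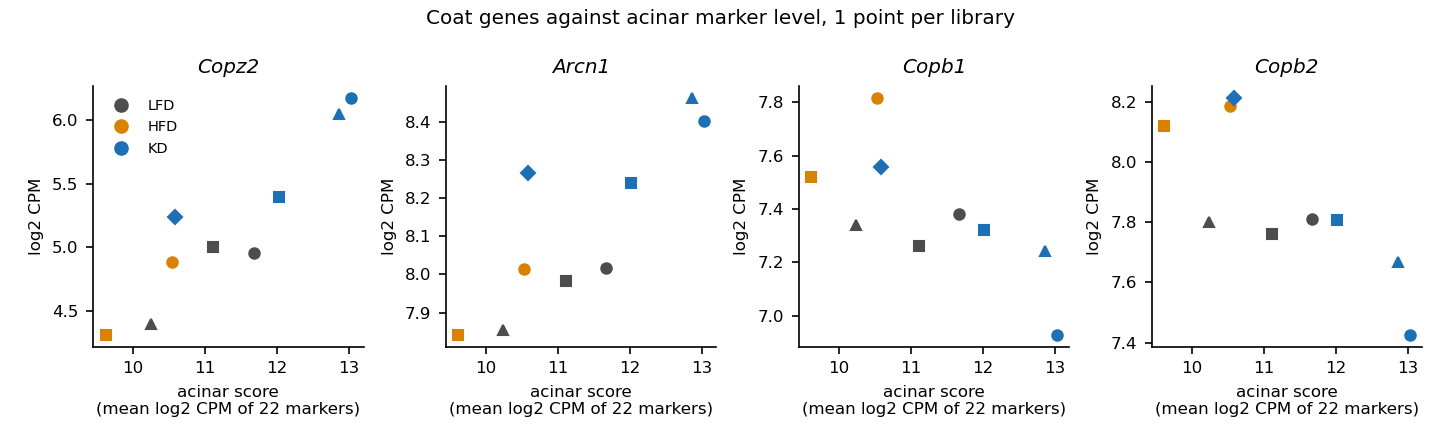
Log2 CPM of 4 coat genes (y axis) against the acinar score (x axis, mean log2 CPM of 22 acinar markers), 1 point per library, coloured by diet, with symbols for the replicate number (circle 1, square 2, triangle 3, diamond 4). Copz2 and Arcn1 climb to KD replicates 1 and 3, the libraries with the highest acinar score, where Copb1 and Copb2 are low.

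An edgeR fit with the acinar score as a covariate called 8.1% of all genes in KD against LFD. All 10 members were above 0 in it, with a median log2 fold change of 0.32, against -0.016 over all genes. Copz2 and Arcn1 were lower than without the covariate, and the other members were higher. Copz2 was at a log2 fold change of 0.47 (SE 0.15, adjusted p = 0.0749 in edgeR) and Arcn1 at 0.29 (SE 0.11, adjusted p = 0.139 in edgeR). Cope was at 0.59 (SE 0.15) and passed (adjusted p = 0.0286 in edgeR), and Arf1 was at 0.42 (SE 0.12, adjusted p = 0.0508 in edgeR). Copb2 was at 0.21 (SE 0.14) and Copb1 at 0.07 (SE 0.15), both short of the threshold. Copa was at 0.30 (SE 0.12), Copg1 at 0.34 (SE 0.12), Copz1 at 0.35 (SE 0.14) and Copg2 at 0.15 (SE 0.20), and none of these passed. With the lymphocyte score as the covariate, no gene of the 18548 was called by edgeR in KD against LFD. That score had separate ranges by diet, so the fit cannot tell its part from that of the diet. The SE of Cope was 0.37 in this fit, against 0.14 without the covariate. There Cope was at 1.17 (SE 0.37), Copz1 at 0.90 (SE 0.33), Copz2 at 1.42 (SE 0.84) and Arf1 at 0.67 (SE 0.36). Copa was at 0.35 (SE 0.41), Copg1 at 0.39 (SE 0.39), Arcn1 at 0.45 (SE 0.40) and Copb2 at 0.11 (SE 0.52). All of these were above their values without the covariate. Copb1 at -0.13 (SE 0.47) and Copg2 at -1.16 (SE 0.34) were below theirs.

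Levels can be compared between genes per length of transcript, here the longest annotated coding transcript of each gene, and the order below rests on that choice. Over the 9 libraries Copa averaged 97.1 ± 8.60 CPM per kb (SD) and Arf1 95.3 ± 13.3, followed by Copb2 at 77.5 ± 13.9, Cope at 77.0 ± 15.6, Arcn1 at 69.1 ± 11.1, Copg1 at 58.1 ± 6.62, Copb1 at 50.2 ± 8.63, Copz2 at 42.0 ± 19.9, Copz1 at 30.3 ± 4.20 and Copg2 at 9.50 ± 1.56. Each gene overlapped its neighbour in this order, except that Copg2 lay below Copz1 in all 9 libraries without overlap of their ranges. Copz2 varied most, with a coefficient of variation of 47.5% and a ratio of 3.65 between its highest and lowest library, while the other 9 genes had 8.86 to 20.2%. Per kb, Copz2 lay above Copz1 in 7 of the 9 libraries, while its counts were lower than those of Copz1 in every library.

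**Figure D4:**
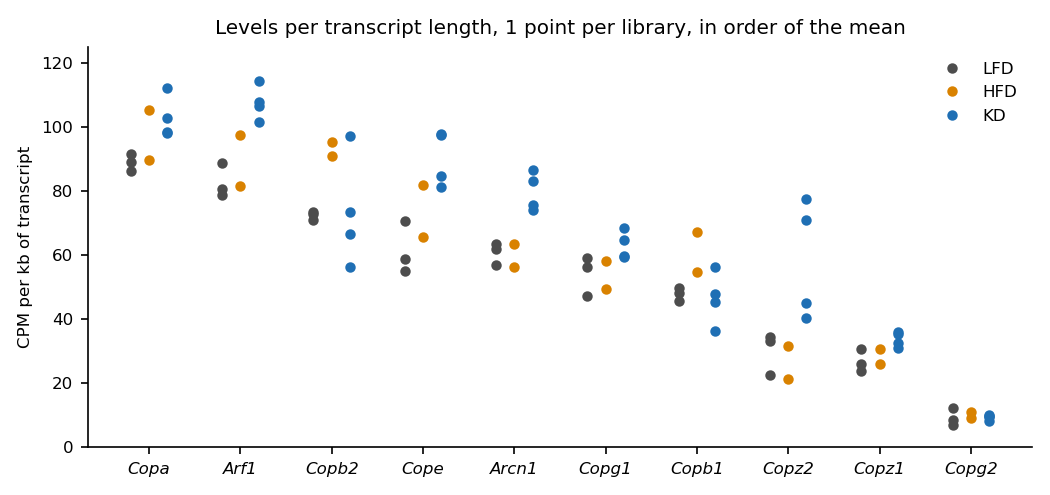
CPM per kb of transcript (y axis) of the 10 genes in each library, coloured by diet and ordered by the mean over the 9 libraries. Copa and Arf1 lead, Copg2 lies lowest in every library, and the Copz2 points spread from 21.3 to 77.6.

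As a share of the summed level of the 10 genes per kb, Copz2 ranged from 3.51% in HFD replicate 2 to 11.8% in KD replicate 1, Copb1 from 5.51% in KD replicate 1 to 11.6% in HFD replicate 1, and Copb2 from 8.54% in KD replicate 1 to 16.4% in HFD replicate 1. Arf1 kept to 14.0 to 16.3% and Copa to 14.9 to 17.4%. The mean log2 CPM of the 10 genes was 6.91, 6.97 and 6.89 on LFD, 7.05 and 7.04 on HFD, and 7.19, 7.16, 7.23 and 7.30 on KD, in which the diets did not overlap. How often the mean of 10 other genes separates the diets in this way was not tested, and these genes were chosen with earlier results known. As a plain share of all counts, without TMM scaling, the 10 genes took 0.169, 0.210 and 0.203% on LFD, 0.218 and 0.278% on HFD, and 0.101, 0.160, 0.119 and 0.247% on KD. There the KD libraries lay on both sides of LFD, lowest in KD replicates 1 and 3.

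The rest of the COPI cycle was described by lists of genes chosen by name, also with earlier results of these data known. Of 11 genes that load, unload or belong with Arf GTPases, 1 was called higher on KD than on LFD and none was called lower, where edgeR called 0.981% of all genes higher and 3.14% lower, and the median log2 fold change was 0.30. Arfgap3, which triggers GTP hydrolysis on Arf1 on coated membranes, averaged 87.5 ± 15.6 CPM (SD, n = 3) on LFD, 85.5 ± 6.08 (n = 2) on HFD and 142 ± 18.7 (n = 4) on KD, a log2 fold change against LFD of 0.70 (SE 0.16, adjusted p = 0.0339 in edgeR). Gbf1, the exchange factor that loads Arf1 with GTP at the Golgi, was at 171 ± 6.63, 159 ± 13.6 and 213 ± 12.2 CPM in the same order and did not pass (log2 fold change 0.32, SE 0.12, adjusted p = 0.148 in edgeR). Arfgap1, another Arf GTPase activator, was at 60.3 ± 6.52, 54.3 ± 3.41 and 64.3 ± 6.23 CPM (log2 fold change 0.09, SE 0.13, adjusted p = 0.712 in edgeR).

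Cargo and its receptors were represented by 16 genes, of which 3 were called higher on KD than on LFD and none was called lower, again against 0.981% and 3.14% of all genes. The median log2 fold change was 0.35. Tmed10, a cargo receptor that binds coatomer through its tail, averaged 136 ± 8.0 CPM (SD, n = 3) on LFD, 144 ± 3.75 (n = 2) on HFD and 209 ± 7.80 (n = 4) on KD (log2 fold change 0.62, SE 0.12, adjusted p = 0.0200 in edgeR). Tmed2, its partner, averaged 114 ± 8.66, 123 ± 1.72 and 168 ± 9.69 CPM (0.56, SE 0.12, adjusted p = 0.0282 in edgeR). Kdelr1, a receptor that returns escaped residents of the endoplasmic reticulum, averaged 49.3 ± 5.03, 49.4 ± 1.98 and 70.1 ± 6.20 CPM (0.51, SE 0.12, adjusted p = 0.0438 in edgeR). Kdelr2 (122, 144 and 148 CPM) and Kdelr3, receptors of the same kind, were not called (log2 fold change 0.29 and 0.39, adjusted p = 0.259 and 0.382 in edgeR). Of the 16, 8 were higher on KD than on LFD without overlap, Tmed10, Tmed2 and Kdelr1 among them, against 9.69% of all genes. The log2 fold change was above 0 for 15 of the 16, against 48.1% of all genes.

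Among 10 genes that tether and fuse COPI vesicles at the endoplasmic reticulum, 1 was called higher on KD and none was called lower, where 0.981% and 3.14% of all genes were. The log2 fold change was above 0 for 9 of the 10, against 48.1% of all genes, with a median of 0.31. Scfd2, a member of the family of proteins that assist vesicle fusion, averaged 25.0 ± 3.88 CPM (SD, n = 3) on LFD, 25.2 ± 3.01 (n = 2) on HFD and 42.4 ± 4.44 (n = 4) on KD (log2 fold change 0.76, SE 0.15, adjusted p = 0.0210 in edgeR). None of 15 genes of the COPII coat, which carries cargo out of the endoplasmic reticulum, and none of 11 clathrin and AP-1 genes, which coat vesicles at the far side of the Golgi, was called, although 7 and 4 of them had an unadjusted p below 0.05, against 22.7% of all genes. Their medians were 0.35 and 0.29, at or above the 0.27 of the COPI genes. No gene of the 5 lists was called in HFD against LFD or in KD against HFD by edgeR, where 0 of all genes were called. At an unadjusted p below 0.05, KD against HFD had 5 of the Arf cycle genes, 5 of the retrieval genes, 4 of the tether genes, 7 of the COPII genes and 1 of the clathrin genes, against 22.7% of all genes. HFD against LFD had 1 each of the retrieval, tether and COPII genes, against 9.99% of all genes. All 5 genes called in KD against LFD lost the call when LFD replicate 1 was left out, with edgeR adjusted p-values of 0.0860 to 0.180. Without that library 0.97% of all genes were called, against 4.12% with all 9. Over the single omissions this share ran from 0.822% (KD replicate 3) to 7.4% (KD replicate 4). Over the 9 libraries left out in turn, the call was lost 2 times for Scfd2 (LFD replicate 1 and KD replicate 3), 4 times for Tmed10 (LFD replicates 1 and 2, KD replicates 2 and 3), 6 times for Tmed2 (all but HFD replicates 1 and 2 and KD replicate 4), 8 times for Arfgap3 (all but KD replicate 4) and 9 times for Kdelr1. Tmed2 and Kdelr1 were below 0 when libraries were scaled by their totals.

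**Figure D5:**
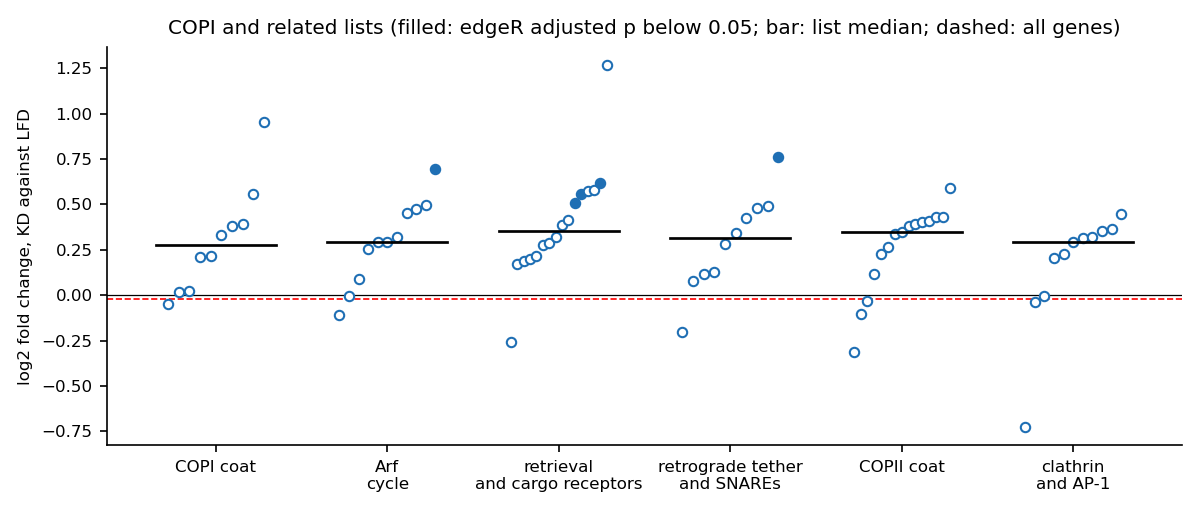
Log2 fold changes for KD against LFD (y axis) of the COPI genes and of the 5 related lists (x axis), 1 point per gene, sorted within a list; filled points had an edgeR adjusted p below 0.05, bars give list medians and the dashed line the median of all genes. All 6 medians lie between 0.27 and 0.35, and the 5 filled points are in the Arf cycle, retrieval and tether lists.

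The mean log2 CPM of the 10 genes was also compared with 10418 other named genes of at least 5 CPM on average. The genes most like it over the 9 libraries were Qpctl (Pearson's r 0.98), which encodes a Golgi enzyme that modifies peptide ends, Tm2d2 (0.97), Whamm (0.97), an actin nucleation factor, Tmem106c (0.97), and Rpn2 (0.97), a subunit of the complex that attaches sugars to proteins in the endoplasmic reticulum. Qpctl averaged 19.5 CPM on LFD, 23.2 on HFD and 31.8 on KD, and Rpn2 averaged 241, 288 and 365 CPM. These are descriptions of 9 libraries that share their diets, scaling and cell make-up.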

How the data were processed

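Polyadenylated RNA from islets of mice on 3 diets was sequenced from directional libraries, per the labels' protocols. The submitters' processing notes name cutadapt 1.16, STAR 2.7.9a, featureCounts 1.6.3, DESeq2 1.40.2 and the genome build GRCm39 (mm39). The strand setting, annotation release and handling of shared reads are not given in the sources used here. The deposited file holds raw counts, and its columns were matched to the sample titles. Symbols and transcript lengths came from GENCODE M21 (51948 of 56941 identifiers matched), and sequences from RefSeq on GRCm38.p6.

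From these counts, genes were kept by filterByExpr and tested in edgeR 4.0.16 (R 4.3.3) with TMM scaling and a mean per diet over all 9 libraries (robust quasi-likelihood, two-sided, Benjamini-Hochberg over the 18548 genes, threshold 0.05). Log2 CPM used a prior count of 2, and paralog ratios added 0.5 to each count. The procedure was also run on simulated counts with known changes, larger than those of the members in KD against LFD. The simulation held no differences in cell make-up, so it does not bear on small changes or on such differences. Alternatives were other scalings, DESeq2 1.42.0, limma-voom (limma 3.58.1), other filters, marker scores as covariates, a replicate block, only the diets compared, and leaving out each library.

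The members and lists were chosen with earlier results of these data known. Named were all 10 members in every comparison, genes of the related lists past the threshold (at most 10 per comparison), Gbf1, Arfgap1, Kdelr1, Tmed2 and Tmed10 always, and the 5 genes most like the members' mean. Kdelr2 and Kdelr3 were added beside Kdelr1. No 2 libraries of a diet were alike within sampling noise, and library totals of 15513502 to 26588390 counts set the precision.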

Additional observations from a re-analysis of the deposited data

How the results depend on the processing

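Over 30 log2 fold changes of members (10 genes in 3 comparisons) and 20 alternatives each, 537 of 600 values kept their direction and their side of the threshold, 48 changed sign, 15 passed the threshold only under the alternative and 0 lost a call. No member was called in HFD against LFD under any alternative. The number of members called in KD against LFD, 0 in the analysis reported, was 4 with DESeq2 (9.56% of all genes called), 2 with limma-voom (10.1%), 1 with no filter on low counts (Cope; 3.42%) and 1 with the acinar covariate (Cope; 8.1%). In KD against HFD it was 2 with DESeq2 (Copz2 and Arcn1; 8.18%), and in the joint test 4 with DESeq2 (12.6%), 1 with limma-voom (8.58%) and 1 with no filter (3.93%). Leaving out 1 library at a time gave 0 to 1 in each of these 3 tests, and the 1 was Copz2 without KD replicate 4. There 7.4% of all genes were called in KD against LFD, 9.84% in KD against HFD and 10% in the joint test.

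The labels name no pairing by replicate number, and the deviations from the diet means did not settle whether there was one. They had r = 0.22 for LFD and KD replicates 1, -0.02 for replicates 2 and -0.0026 for replicates 3. With HFD, r was 0.069 and 0.075 for LFD replicates 1 and 2, and 0.038 and 0.081 for KD replicates 1 and 2. The 2 HFD libraries deviate in opposite directions by construction. Not every library correlated best with its own number (LFD replicate 3 had 0.24 with KD replicate 4). With a replicate block, 2 members were called in KD against LFD (Cope and Copz2), 1 in KD against HFD and 1 in the joint test (Copz2 in both), where 10.8%, 12.5% and 15.2% of all genes were called. In KD against LFD these were 2003 genes, against 764 without the block, and Copb2 moved to -0.15.

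Scaling by library totals turned the following log2 fold changes for KD against LFD: Copa to -0.35, Copb2 -0.47, Copg1 -0.34, Copg2 -0.54, Cope -0.017, Copz1 -0.24, Arcn1 -0.20, Arf1 -0.19, Tmed2 -0.033, Kdelr1 -0.059, Gbf1 -0.28 and Arfgap1 -0.51. For KD against HFD it turned Copa to -0.69, Copg1 -0.54, Cope -0.50, Copz1 -0.53, Arcn1 -0.38 and Arf1 -0.52, and for HFD against LFD Copg1 to 0.20 and Arcn1 to 0.18. The shift of all genes was -0.59, -0.81 and 0.20 in the 3 comparisons, which is that scaling's own construction.

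The acinar covariate turned Copb1 to 0.069 (KD against LFD), Copz2 to 0.19 and Arcn1 to 0.062 (HFD against LFD), and Copb2 to 0.035 and Copg2 to 0.11 (KD against HFD). The lymphocyte covariate turned Copg2 to -1.16 (KD against LFD), and Copg1 to 0.11, Copg2 to -0.74, Copz2 to 0.16 and Arcn1 to 0.020 (HFD against LFD). A minimum of 5 CPM in 3 libraries turned Copb2 to -0.038 and Copg2 to -0.032 in KD against LFD, and limma-voom turned Copb2 to -0.038 there and Copg1 to 0.064 in HFD against LFD. The cause was not tested.

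Leaving out 1 library at a time turned signs within these ranges: for KD against LFD, Copb1 -0.15 to 0.053, Copb2 -0.15 to 0.13 and Copg2 -0.15 to 0.28; for HFD against LFD, Copg1 -0.13 to 0.10, Copg2 -0.045 to 0.39, Copz1 -0.047 to 0.19, Copz2 -0.50 to 0.071, Arcn1 -0.11 to 0.063 and Arf1 -0.022 to 0.24; for KD against HFD, Copa -0.028 to 0.20 and Copg2 -0.24 to 0.048; and for the log2 ratio of Copg2 to Copg1, -0.42 to 0.029. Over the same alternatives the edgeR adjusted p for KD against LFD ran from 0.0595 to 0.194 for Cope and from 0.0289 to 0.169 for Copz2. The genes most like the members' mean kept r between 0.886 and 0.995 under 2 other scalings and without each library, alternatives chosen after the data were seen. An exact permutation test of 2 HFD against 4 KD libraries cannot go below p = 0.0667, so the paralog ratios on HFD are given as values.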
